A study of Mus musculus with 9 samples.

Results

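Dendritic cell genes are described here in RNA-seq libraries made from splenic CD4+ T cells. The genes were chosen by name, as the rows of the deposited expression table for Siglech, Bst2, Flt3, Zbtb46, Clec9a, Itgax, Cd209a and Clec10a, which gave 8 of the 55487 genes listed. All 8 passed the filter of at least 1 TPM in at least 3 libraries that left 15536 genes for testing. TPM, a length-normalised measure of transcript abundance, divides the reads of a gene by its length and scales every library to the same total, so levels can be set side by side between genes.

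The study asked how TRAIL, a cytokine related to TNF, acts on the activation of T cells that carry its receptor, TRAIL-R. CD4+ T cells were taken from the spleens of wild type C57BL/6 mice (Trail-r+/+, female, 6 to 7 weeks old) with a kit that removes other cells and leaves the CD4+ T cells untouched. The first group was kept in RPMI-1640 medium with fetal calf serum and antibiotics, which the cells of all 3 groups received. The second group was stimulated for 24 h with Abs to CD3, part of the TCR complex, at 3 µg/ml and to the costimulatory receptor CD28 at 2 µg/ml, and the last group received the same Abs for 24 h together with 10 µg/ml of TRAIL. Each group had 3 libraries. Neither the culture time of the medium group nor the number of mice is given in the sources used here. Cells without TRAIL-R and cells given TRAIL alone were not analysed here.

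Dendritic cells are the antigen-presenting cells that prime naive T cells. Plasmacytoid dendritic cells make type I interferon after sensing viral nucleic acids, conventional type 1 cells cross-present antigen to CD8 T cells, and conventional type 2 cells present antigen mainly to CD4 T cells. All of them depend on the cytokine FLT3L and its receptor, and in the spleen they lie close to T cells, B cells and macrophages.

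The 8 genes mark different parts of this lineage. Siglech, a sialic acid-binding lectin, and Bst2, an interferon-inducible membrane protein that tethers budding virus, are markers of mouse plasmacytoid dendritic cells. Flt3 encodes the receptor of FLT3L, and Zbtb46 a transcription factor of conventional dendritic cells. Itgax encodes the integrin CD11c. Clec9a is a receptor for dead cells on conventional type 1 cells, whereas Cd209a and Clec10a are lectins found on conventional type 2 and monocyte-derived cells. Several are not exclusive to dendritic cells, since Bst2 is inducible in many cell types and Itgax is also found on macrophages and some lymphocytes.

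Promoter windows of 300 bases, from 250 before to 50 after the start site, were taken from RefSeq (GRCm38.p6) for 7 of the 8 genes, and Clec10a had no entry. They were searched on both strands for 4 motifs: the interferon-stimulated response element GAAANNGAAA, the ETS-IRF composite element GGAANNGAAA, the AP-1 site TGANTCA and the NF-kB site GGGNNTTTCC. Of 32851 windows of the same length, 3.44% held the first, 2.72% the second, 7.81% the third and 1.63% the fourth. The first and second motifs differ at 1 fixed letter, so no stretch can match both. The 4 windows with a match are shown because the factors that bind these letters act downstream of interferon receptors, in dendritic cell development and downstream of the TCR, with the matched bases in capitals and each window read 5′ to 3′ on the strand of its gene.
Bst2: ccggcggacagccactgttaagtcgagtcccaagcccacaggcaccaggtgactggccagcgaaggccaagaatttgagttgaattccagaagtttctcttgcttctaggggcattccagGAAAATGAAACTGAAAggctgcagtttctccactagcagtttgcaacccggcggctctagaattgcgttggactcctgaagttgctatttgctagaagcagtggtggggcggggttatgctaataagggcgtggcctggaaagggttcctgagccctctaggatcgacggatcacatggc
Cd209a: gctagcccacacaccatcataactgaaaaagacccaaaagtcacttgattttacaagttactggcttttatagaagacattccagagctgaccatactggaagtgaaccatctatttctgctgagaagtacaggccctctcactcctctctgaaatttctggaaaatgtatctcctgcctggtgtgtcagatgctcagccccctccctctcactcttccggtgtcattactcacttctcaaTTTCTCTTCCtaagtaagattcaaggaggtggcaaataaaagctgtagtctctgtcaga
Itgax: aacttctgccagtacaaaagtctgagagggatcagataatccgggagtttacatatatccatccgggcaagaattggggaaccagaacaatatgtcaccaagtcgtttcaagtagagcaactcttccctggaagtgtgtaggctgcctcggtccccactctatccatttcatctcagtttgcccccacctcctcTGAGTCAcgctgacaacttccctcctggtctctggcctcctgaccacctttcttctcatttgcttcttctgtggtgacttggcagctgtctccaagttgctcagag
Zbtb46: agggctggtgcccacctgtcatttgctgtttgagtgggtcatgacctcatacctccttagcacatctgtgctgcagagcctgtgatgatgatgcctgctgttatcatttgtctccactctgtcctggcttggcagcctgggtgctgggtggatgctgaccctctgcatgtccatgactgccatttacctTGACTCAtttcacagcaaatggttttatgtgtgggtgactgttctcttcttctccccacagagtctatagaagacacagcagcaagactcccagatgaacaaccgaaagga

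The Bst2 window (chr8:71537423-71537722, minus strand) held 2 overlapping matches to the interferon-stimulated response element, which began 130 and 124 bases before the start site. The Cd209a window (chr8:3748935-3749234, minus strand) held 1 match to the ETS-IRF element on the opposite strand, beginning 9 bases before the start. An AP-1 site lay 56 bases before the start of Itgax (chr7:128129300-128129599, plus strand). Another lay 61 bases before the RefSeq start used for Zbtb46 (chr2:181424339-181424638, minus strand). On its strand Zbtb46 begins at 181459426 in the expression table, so this window lies well inside the gene. Whether the window acts as a promoter was not tested. None of the 7 windows held the NF-kB letters, and those of Siglech, Flt3 and Clec9a held none of the 4. These are matches of letters, not measurements of binding.

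The depth of the libraries is unknown, since TPM keeps no read totals, so errors come from the spread of 3 libraries alone. In single libraries, 57.7 to 60.2% of all genes stood at or below 0.0001 TPM, the value given to most genes without reads. Transcripts of T cells were abundant in every library. The summed level of 10 T cell genes, Cd4 and Cd3e among them, was 3892 to 4220 TPM in medium, 3682 to 3792 after stimulation and 3941 to 4335 with TRAIL. Transcripts of other splenic cells were present as well, and their values are given beside the results they move with. Groups were compared with limma on log2(TPM + 1), and a gene was called changed at an adjusted p under 0.05 with a log2 difference of at least 1 in either direction. The scale understates changes of genes with low TPM. Because it is not stated whether the 3 libraries of a group came from separate mice or cultures, the p-values measure only the spread between these libraries.

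In medium, all 8 transcripts were detected in all 3 libraries, at levels between 1.50 TPM for Clec10a and 68.6 TPM for Bst2. Stimulation lowered 5 of them (Siglech, Itgax, Cd209a, Clec9a and Flt3) and raised 1 (Bst2), so that 6 of 8 were called changed where 31.9% of all tested genes were. The share called lower over all genes was 19.5%, and the share called higher was 12.4%. Zbtb46 was higher and Clec10a lower in every stimulated library than in any medium library, and both missed the fold threshold. For all 8 genes the libraries of these groups did not overlap, which held for 72.6% of all tested genes. The median log2 difference over the 8 genes was -1.84, beside -0.15 over all genes.

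**Figure D1:**
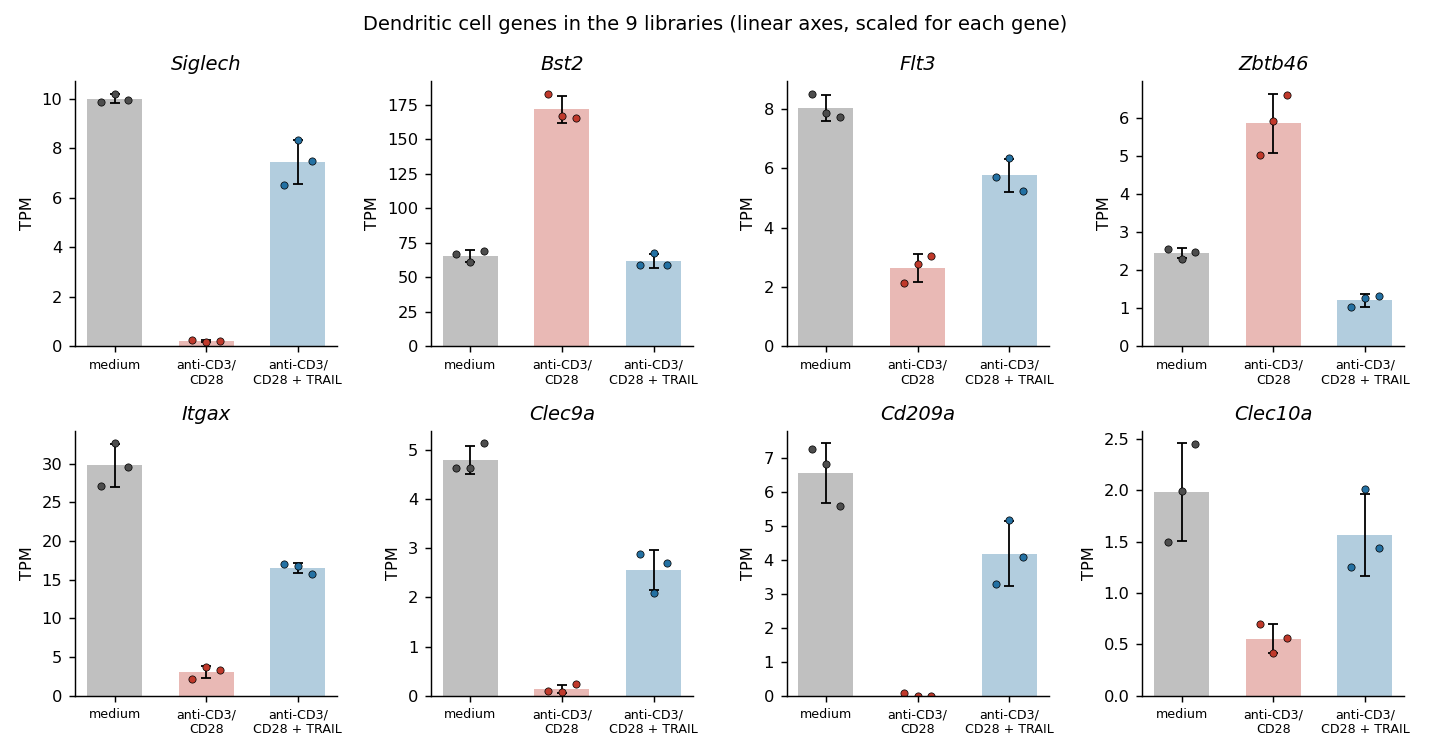
TPM (linear y axes, 1 scale per gene) of the 8 dendritic cell genes in 3 libraries each of medium, anti-CD3/CD28 and anti-CD3/CD28 with TRAIL, with points for libraries, bars for means and error bars for SD; no bar is drawn for stimulated Cd209a, which was listed at 0.0001 TPM in 2 libraries. In stimulated libraries 6 genes were below medium while Bst2 and Zbtb46 were above it, and each gene's TRAIL libraries lay apart from its stimulated ones.

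With TRAIL added to the stimulus, the genes that stimulation had lowered were found at higher levels. Siglech, Cd209a, Itgax and Clec9a were called higher than after stimulation alone, Bst2 and Zbtb46 were called lower, and Flt3 and Clec10a were higher in all 3 libraries without reaching the fold threshold. That made 6 of 8 genes called, beside 30.9% of all genes, 16.6% being called higher and 14.3% lower. Libraries did not overlap for any of the 8 genes, nor for 70.4% of all genes. The median log2 difference was 1.27, beside 0.011 over all genes. The 2 comparisons share the stimulated libraries, so a value that is low in those libraries lowers one difference and raises the other.

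Against medium, the libraries with TRAIL gave no called change among the 8 genes, where 4.62% of all genes were called, 2.49% higher and 2.13% lower. By limma's adjusted p alone, with no fold threshold, 6 genes were lower with TRAIL than in medium, with log2 differences from -0.39 to -0.81, beside 24.6% of all tested genes that were lower and 32.6% that differed in either direction by the same rule. The same number had an unadjusted p under 0.05. For these 6 the libraries did not overlap, as was so for 50.6% of all genes. Siglech, Flt3 and Cd209a had an adjusted p over 0.05 under another scaling of the libraries (median-of-ratios or quantile), and only Zbtb46, Clec9a and Itgax kept one under 0.05. The same 3 were left without medium replicate 1 or 2 or without TRAIL replicate 1 or 3, and 4 genes (these and Cd209a) without medium replicate 3 or with a replicate block. For Bst2 and Clec10a the 2 groups overlapped. The median log2 difference of the 8 genes was -0.49, beside -0.18 over all genes.

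**Figure D2:**
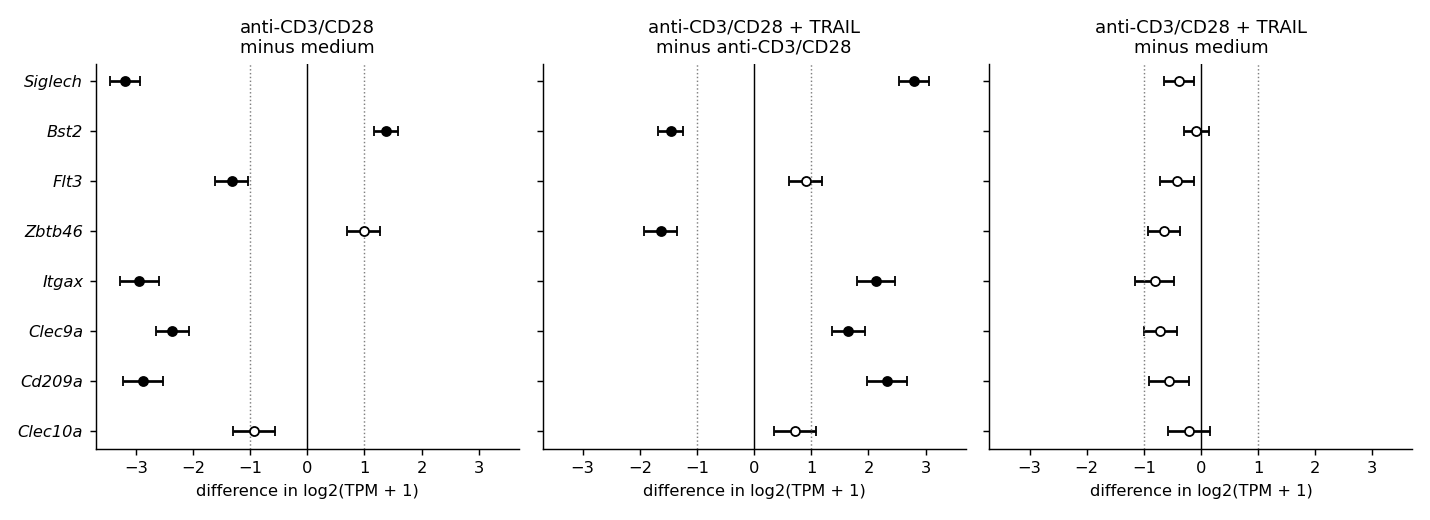
Difference in log2(TPM + 1) for the 8 dendritic cell genes in the 3 comparisons, with 95% confidence intervals from limma and filled points for called genes; dotted lines mark the fold threshold. In the first panel 6 points lie left of 0 and those of Bst2 and Zbtb46 right of it, the second panel shares its stimulated libraries with the first, and in the last panel all points lie between -1 and 0.

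Siglech (ENSMUSG00000051504, chr7:55768178-55778925, plus strand) was among the genes that stimulation lowered most. It was at 9.85, 10.2 and 9.95 TPM in the medium libraries, at 0.243, 0.172 and 0.202 TPM after stimulation, and at 6.51, 8.32 and 7.48 TPM with TRAIL. The stimulated libraries were far below the rest, and each TRAIL library was below each medium library. The log2 difference was -3.19 ± 0.12 (SE, n = 3 per group; limma, adjusted p = 6.0e-09) for stimulated against medium libraries and 2.80 (adjusted p = 1.7e-08) for TRAIL against stimulated ones. The size depends on the processing. Over the alternative settings the first ran from -5.05 to -1.53 and the second from 1.25 to 4.62, with both calls kept in all of them. Relative to the mean in medium, 2.06% ± 0.36 (SD, n = 3) of the level was found after stimulation and 74.4% ± 9.04 with TRAIL.

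Bst2 (ENSMUSG00000046718, chr8:71534255-71537456, minus strand) was the most abundant of the 8 in every library and moved the other way. Its levels were 66.6, 60.7 and 68.6 TPM in medium, 183, 167 and 165 TPM after stimulation, and 59.0, 67.7 and 58.5 TPM with TRAIL. Every stimulated library was above every other library, and the medium and TRAIL libraries overlapped. The rise on stimulation was 1.38 ± 0.096 on the log2 scale (SE; limma, adjusted p = 6.0e-07), and the difference between TRAIL and stimulated libraries was -1.46 (limma, adjusted p = 4.2e-07). TRAIL and medium libraries differed by -0.08 (95% interval -0.30 to 0.13), with an adjusted p of 0.544 from limma, and the sign turned to 0.087 with median-of-ratios and 0.065 with quantile scaling.

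The ratio of the 2 plasmacytoid markers varied widely between groups. Bst2 exceeded Siglech by 5.96 to 6.90 times in the medium libraries, 752 to 968 times in the stimulated libraries and 7.82 to 9.07 times in the TRAIL libraries. The 3 ranges did not overlap. Siglech was at 0.172 to 0.243 TPM in the stimulated libraries, so the ratio there rests on a level under 1 TPM at unknown depth. Whether the Bst2 transcripts came from dendritic cells, from T cells or from both cannot be told apart in bulk RNA.

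Other genes of plasmacytoid dendritic cells, taken as a list of 12, all passed the filter. After stimulation 7 were lower and 2 higher (Irf8 and Cox6a2, named here after their values were seen), beside 19.5% and 12.4% of all tested genes. With TRAIL added 6 were higher and the same 2 lower than after stimulation alone, beside 16.6% and 14.3%. The median log2 differences were -1.61 and 1.13, beside -0.15 and 0.011 over all genes. Ly6d, a surface protein of plasmacytoid cells and B cells, averaged 429 ± 72.3 TPM in medium, 33.0 ± 7.06 after stimulation and 225 ± 21.8 with TRAIL (SD, n = 3). Spib, an ETS factor of plasmacytoid cells and B cells, averaged 186 ± 21.3, 7.64 ± 1.05 and 68.3 ± 10.7 TPM. Irf8, an interferon regulatory factor of plasmacytoid and type 1 cells that activated lymphocytes also express, followed Bst2 instead, at 138 ± 10.8, 358 ± 45.0 and 86.5 ± 5.09 TPM. Against medium, TRAIL libraries were lower for 2 of the 12 genes (Spib and Tlr9, a sensor of DNA that was named after its values were seen) and higher for none, beside 2.13% and 2.49% of all tested genes.

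The interferon ligands that plasmacytoid cells can release were close to the lower limit of the table. Of Ifna1, Ifna2, Ifna4, Ifna5 and Ifnb1, none passed the filter, all 5 were listed at 0.0001 TPM in every medium library, and their summed level was 0.156 to 0.304 TPM after stimulation and 0.200 to 0.380 TPM with TRAIL. Among 15 interferon-stimulated genes, 1 was higher after stimulation (Isg15, a ubiquitin-like modifier, at 29.6 ± 2.44 TPM in medium and 91.8 ± 11.6 after stimulation), 5 were lower (Ifit1, Ifit2, Mx1, Oas2 and Rsad2) and 9 were not called, and these names were picked after the values were seen. Over all tested genes 12.4% were called higher and 19.5% lower in this comparison. The median log2 difference of the list was -0.47, beside -0.15 over all genes. With TRAIL added 2 of the 15 were higher (Ifit2 and Mx1) and 3 lower (Isg15 and Usp18 among them) than after stimulation alone, beside 16.6 and 14.3% of all tested genes, Isg15 being at 39.9 ± 3.30 TPM, and none differed by the call from medium. Among the most abundant genes of the list were Irf7 (73.2, 44.4 and 56.2 TPM in the order medium, stimulated, TRAIL) and Stat2 (68.9, 78.2 and 50.3 TPM).

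Flt3 (ENSMUSG00000042817, chr5:147330741-147400489, minus strand), the receptor tyrosine kinase on which dendritic cells depend, fell less than Siglech. Its levels were 8.53, 7.87 and 7.73 TPM in medium, 2.12, 2.77 and 3.03 TPM after stimulation, and 5.72, 6.36 and 5.25 TPM with TRAIL. The 3 groups formed separate ranges in that order of medium, TRAIL and stimulated. The log2 difference was -1.32 ± 0.13 (SE; limma, adjusted p = 8.5e-06) for stimulated against medium libraries, and this call was lost with a pseudocount of 5 (-0.77) and with quantile scaling (-0.94). For TRAIL against stimulated libraries it was 0.90 (95% interval 0.61 to 1.19; limma, adjusted p = 1.4e-04), short of the fold threshold, which it passed with a pseudocount of 0.1 (1.11). An antisense gene, Gm26597, overlaps Flt3 over 936 bases, and whether the counting used strand is not stated.

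The ligand of this receptor fell too. Flt3l, which T cells make among other cells, averaged 151 ± 14.0 TPM in medium, 68.1 ± 8.80 after stimulation and 114 ± 14.6 with TRAIL (SD, n = 3). The log2 difference for stimulated against medium libraries was -1.15 (limma, adjusted p = 2.4e-05). In a list of 6 ligands that act on dendritic cells, stimulation raised 2 (Csf2 and Xcl1) and lowered 2 (Flt3l and Cd40lg), Csf2 and Xcl1 being named after their values were seen. The shares over all tested genes were 12.4% higher and 19.5% lower.

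Zbtb46 (ENSMUSG00000027583, chr2:181387762-181459426, minus strand) was the other gene with higher levels after stimulation. It was at 2.56, 2.29 and 2.48 TPM in medium, at 5.04, 5.93 and 6.60 TPM after stimulation, and at 1.01, 1.27 and 1.32 TPM with TRAIL. No 2 of the 3 groups overlapped, with the stimulated libraries highest and the TRAIL libraries lowest. The log2 difference for stimulated against medium libraries was 0.99 (95% interval 0.70 to 1.27; limma, adjusted p = 6.3e-05). It fell just short of the threshold of 1, and passed it with a pseudocount of 0.1 (1.22), with both other scalings (1.13 and 1.30), without medium replicate 1 (1.01) and without stimulated replicate 1 (1.08). The log2 difference was -1.63 (limma, adjusted p = 1.5e-06) for TRAIL against stimulated libraries and -0.65 (limma, adjusted p = 4.5e-03) for TRAIL against medium. The call for TRAIL against stimulated libraries was lost with a pseudocount of 5 (-0.81), and the difference from medium was not called. Of the 8 genes, Zbtb46 alone had all 3 of its TRAIL libraries outside the range spanned by the medium and stimulated libraries. A small nuclear RNA gene, Gm22708, lies within it over 103 bases.

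Within each library, the ratio of Zbtb46 to Flt3 was 0.292 to 0.321 in medium, 2.14 to 2.38 after stimulation and 0.177 to 0.252 with TRAIL. The same 2 genes thus stood in opposite order of level after stimulation and in both other groups.

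Itgax (ENSMUSG00000030789, chr7:128129547-128150657, plus strand), the gene of CD11c, was second in level in medium. Its levels were 27.1, 32.6 and 29.6 TPM in medium, 2.17, 3.75 and 3.27 TPM after stimulation, and 17.0, 16.8 and 15.8 TPM with TRAIL. The 3 groups were separate, with the TRAIL libraries close to each other and below all medium libraries. The log2 difference was -2.94 ± 0.15 (SE; limma, adjusted p = 6.6e-08) on stimulation, 2.13 (adjusted p = 7.6e-07) for TRAIL against stimulated libraries and -0.81 (adjusted p = 3.6e-03) for TRAIL against medium. With TRAIL, 55.6% ± 2.24 of the level in medium was found. Its closest paralog, Itgad, is 73.2% identical over 3255 bases of the transcript, and reads of near-identical stretches may be divided between them.

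Clec9a (ENSMUSG00000046080, chr6:129408862-129424763, plus strand), the marker of type 1 cells, was nearly lost on stimulation. It was at 4.63, 4.64 and 5.13 TPM in medium, at 0.0929, 0.0722 and 0.231 TPM after stimulation, and at 2.87, 2.09 and 2.71 TPM with TRAIL. No groups overlapped, and the TRAIL libraries stood at 53.3% ± 8.60 of the mean in medium. The log2 difference was -2.36 ± 0.13 (SE; limma, adjusted p = 1.2e-07) on stimulation and 1.65 (adjusted p = 1.8e-06) for TRAIL against stimulated libraries. Both calls were lost with a pseudocount of 5 (-0.93 and 0.56), which weighs on genes at this level. Clec9a overlaps Clec1b over 474 bases on the same strand and Gm43914 over 594 bases, and the reads of these stretches may be divided between the genes.

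Of 10 other genes of type 1 cells, 7 were lower and 2 higher after stimulation (median log2 difference -1.89), beside 19.5% and 12.4% of all tested genes. With TRAIL added 5 were higher (Cadm1, Tlr3, Wdfy4, Itgae and Snx22) and 2 lower than after stimulation alone (median 0.93), beside 16.6% and 14.3%. Both genes of the list that rose on stimulation are transcription factors of the lineage, Irf8, which is also in the plasmacytoid list, and Batf3, and the same 2 were lower with TRAIL. Whether their transcripts came from dendritic cells, from T cells or from both cannot be told apart in bulk RNA. Against medium 2 of the 10 were lower with TRAIL (Tlr3 and Snx22) and none higher, beside 2.13% and 2.49% of all tested genes. Batf3, which partners AP-1 proteins and is required for type 1 cells, averaged 4.07 ± 0.64 TPM in medium, 29.6 ± 3.01 after stimulation and 4.91 ± 1.22 with TRAIL. The chemokine receptor Xcr1, which type 1 cells use to follow XCL1, was at 1.51 ± 0.0895 TPM in medium and 0.68 ± 0.13 with TRAIL, and was at most 0.0141 TPM in the stimulated libraries. Apart from Irf8, Id2 and Wdfy4, these names were picked after the values were seen. The most abundant after Irf8 were Id2, an inhibitor of E proteins that T cells also express (206, 111 and 198 TPM), and Wdfy4, which is needed for cross-presentation (77.7, 15.5 and 43.2 TPM).

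Cd209a (ENSMUSG00000031494, chr8:3743397-3748984, minus strand), a lectin related to DC-SIGN, was at 7.28, 6.81 and 5.59 TPM in medium and at 3.30, 5.18 and 4.08 TPM with TRAIL. After stimulation it was at 0.0921 TPM in replicate 1 and listed at 0.0001 TPM in replicates 2 and 3. The stimulated libraries were below all others, and every TRAIL library was below every medium library. The fitted log2 difference of -2.87 ± 0.16 (SE; limma, adjusted p = 1.0e-07) depends on the pseudocount, since 2 libraries were listed at the value given to genes without reads. TRAIL libraries were higher than stimulated ones by 2.32 (limma, adjusted p = 5.3e-07), a call that was lost with a pseudocount of 5 (0.86), and stood at 63.8% ± 14.4 of the mean in medium.

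Clec10a (ENSMUSG00000000318, chr11:70156197-70170834, plus strand), a galactose-type lectin, had the lowest mean of the 8 in medium and the widest relative spread there. It was at 1.50, 2.00 and 2.45 TPM in medium, at 0.695, 0.415 and 0.562 TPM after stimulation, and at 1.25, 2.01 and 1.44 TPM with TRAIL. The stimulated libraries were below all others, whereas medium and TRAIL libraries overlapped. The log2 difference was -0.93 (95% interval -1.30 to -0.56; limma, adjusted p = 5.8e-04) on stimulation and 0.71 (95% interval 0.34 to 1.08; adjusted p = 3.2e-03) for TRAIL against stimulated libraries, both short of the threshold. The first passed it with a pseudocount of 0.1 (-1.66) or without medium replicate 1 (-1.05), and the second with a pseudocount of 0.1 (1.34). With quantile scaling the second was 0.32 (limma, adjusted p = 0.133). The difference between TRAIL and medium libraries was -0.22 (95% interval -0.58 to 0.15; limma, adjusted p = 0.344). Mgl2 is 96.1% identical to Clec10a over 735 bases of the transcript, so the values of Clec10a are uncertain to the extent that reads were divided between the paralogs.

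Of 9 other genes of type 2 cells, 8 passed the filter. After stimulation 6 were lower and 1 higher (median log2 difference -2.56), beside 19.5% and 12.4% of all tested genes. With TRAIL added 6 were higher and 1 lower than after stimulation alone (median 1.88), beside 16.6% and 14.3%. The gene that rose, and that was lower with TRAIL than after stimulation alone but higher than in medium, was Irf4, an interferon regulatory factor that TCR signaling induces in T cells, at 57.2 ± 3.69 TPM in medium, 734 ± 136 after stimulation and 183 ± 15.1 with TRAIL. Sirpa, the CD47 receptor of myeloid cells, averaged 89.3 ± 17.6, 10.7 ± 2.38 and 69.8 ± 4.91 TPM. Klf4, a Krüppel-like factor of type 2 cells and resting T cells, averaged 33.0 ± 3.99, 3.48 ± 0.32 and 65.8 ± 5.87 TPM.

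**Figure D3:**
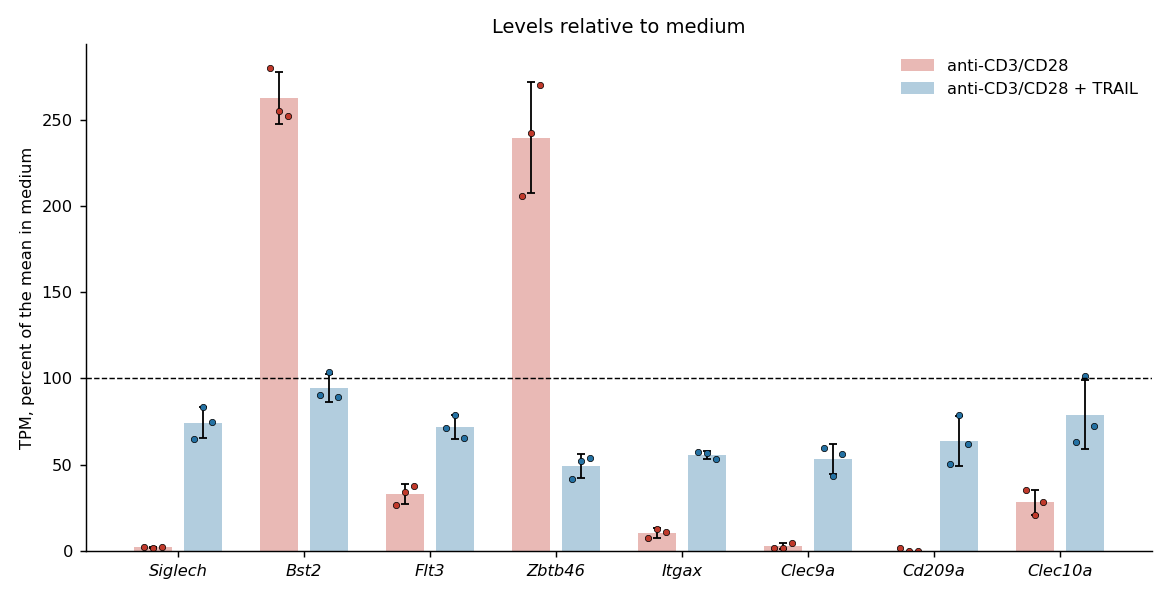
TPM of the 8 dendritic cell genes as percent of the mean in medium (dashed line at 100) in the 3 stimulated and the 3 TRAIL libraries, with bars for means, error bars for SD and points for libraries; no bar is drawn for stimulated Cd209a. With TRAIL the gene means lie between 49.3% for Zbtb46 and 94.5% for Bst2, whereas the bars after stimulation run from 2.06% for Siglech to 263% for Bst2. The points of stimulated Cd209a lie lower, at 1.40, 0.0015 and 0.0015%.

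The order of levels among the 8 genes was nearly the same in medium and with TRAIL. In medium it ran Bst2, Itgax, Siglech, Flt3, Cd209a, Clec9a, Zbtb46 and Clec10a, and only the last pair overlapped between libraries. With TRAIL the first 6 stood in the same order, each apart from its neighbour, and Clec10a and Zbtb46, which overlapped, changed places. After stimulation the order was Bst2, Zbtb46, Itgax, Flt3, Clec10a, Siglech, Clec9a and Cd209a. There Itgax did not differ from Flt3 beyond the spread of the libraries, nor Siglech from Clec9a or Clec9a from Cd209a. The sum of the 8 genes was 127 to 132 TPM in medium, 179 to 193 TPM after stimulation and 96.5 to 110 TPM with TRAIL. Bst2 took most of the sum in the stimulated and in the TRAIL libraries, and averaged 65.3 of 129 TPM in medium.

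Ratios between the genes that fell were compared within each library. After stimulation Siglech and Clec9a were under 1 TPM, so the ratios that include them are uncertain in that group. Flt3 relative to Siglech was 0.772 to 0.866 in medium and 0.702 to 0.879 with TRAIL, ranges that overlap, but 8.71 to 16.1 after stimulation. Itgax relative to Siglech was 2.75 to 3.20 in medium, 8.91 to 21.8 after stimulation and 2.03 to 2.62 with TRAIL. Clec9a relative to Siglech was 0.455 to 0.516, 0.382 to 1.14 and 0.251 to 0.441 in the same order, so for this pair the ranges in medium and after stimulation overlapped while both genes fell. Clec9a relative to Flt3 was 0.543 to 0.664 in medium, 0.0261 to 0.0763 after stimulation and 0.329 to 0.516 with TRAIL. In bulk samples, fewer cells of a type and less RNA per cell cannot be told apart.

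Markers of other splenic cells moved with the genes that fell. All 10 B cell genes, all 10 macrophage genes, all 10 monocyte and neutrophil genes, all 7 erythroid genes and 6 of 7 NK cell genes were called lower after stimulation. With TRAIL, all of the first 4 lists and 3 of the 7 NK cell genes (Ncr1, Klrb1c and Klra8) were called higher than after stimulation alone, the latter 2 being named after their values were seen. Over all tested genes 19.5% were called lower on stimulation and 16.6% higher with TRAIL added. The summed B cell genes were at 2540 to 2647 TPM in medium, 196 to 217 after stimulation and 1052 to 1195 with TRAIL, Cd79a included. The macrophage genes summed to 1164 to 1399 TPM in medium, 30.7 to 33.5 after stimulation and 1109 to 1259 with TRAIL.

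The monocyte and neutrophil genes summed to 1162 to 1665, 75.6 to 101 and 813 to 942 TPM in the same order, the erythroid genes to 2137 to 2585, 24.8 to 39.6 and 619 to 669 TPM, and the NK cell genes to 213 to 272, 45.8 to 52.8 and 80.3 to 89.5 TPM. Retnlg, Slc4a1 and the plasmacytoid gene Cd300c were listed at 0.0001 TPM in all stimulated libraries. Of 10 T cell genes, 1 was higher (Cd2) and 1 lower (Cd3g) after stimulation, beside 12.4% and 19.5% of all tested genes, and none was called in either comparison with TRAIL. Against medium, where 2.13% of all tested genes were called lower, TRAIL libraries were lower for 8 of 10 B cell, 7 of 7 erythroid, 6 of 7 NK cell and 1 of 10 monocyte and neutrophil genes (Cxcr2), and none of the 10 macrophage genes was called. Itgax, Flt3, Ly6d, Spib and the MHC class II genes are also expressed by some of these cells. Of the genes named here, Retnlg, Slc4a1, Cd300c, Cd3g and Cxcr2 were picked after their values were seen. The part of these other cell types in the values of the 8 genes was not tested.

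**Figure D4:**
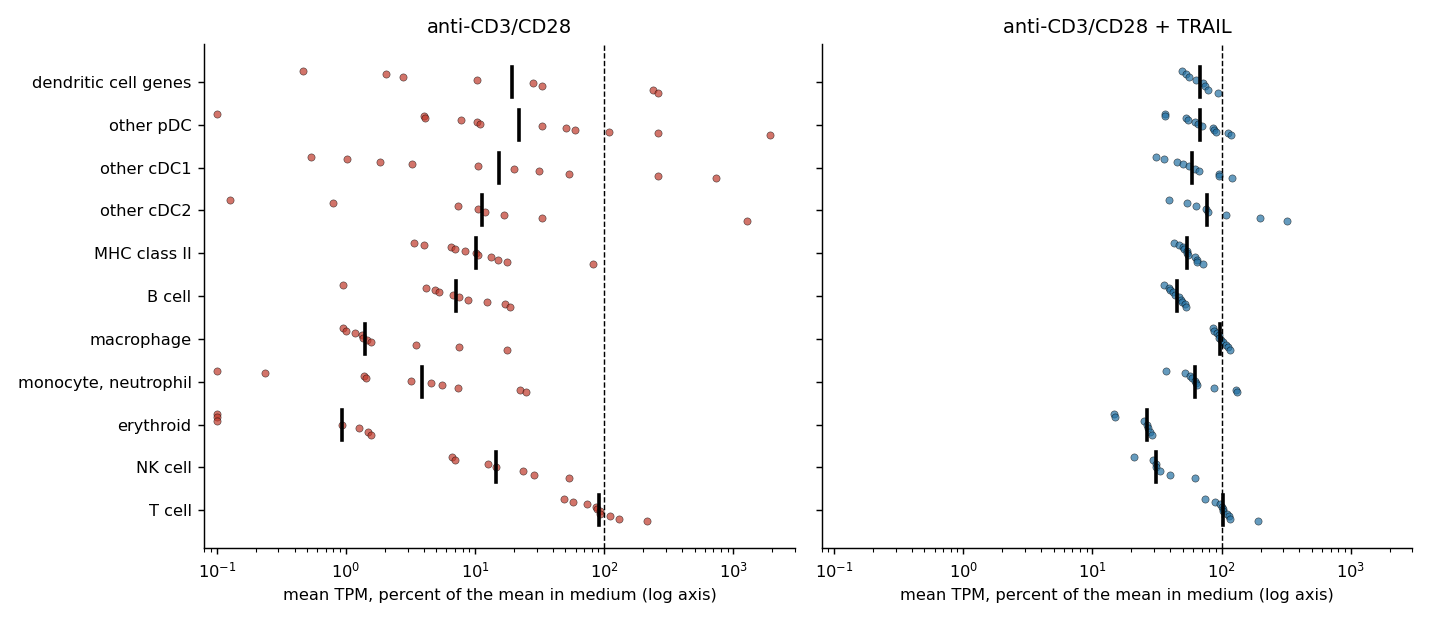
Mean TPM of each gene as percent of its mean in medium (log x axis, dashed line at 100) after anti-CD3/CD28 alone (left) and with TRAIL (right), with 1 point per gene, 1 row per gene list and black bars for medians; values under 0.1% are drawn at 0.1%. The median of T cell genes lies at 90.6% after stimulation, below those of 2 lists not drawn here (95.1% for CD8 T cell and 221% for maturation genes) and above those of the other lists drawn, which with TRAIL run from 26.3% for erythroid to 97.3% for macrophage genes.

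With TRAIL, the 8 dendritic cell genes kept 49.3 to 94.5% of their mean in medium, with a median of 67.8%. The median was 45.0% for B cell genes, 97.3% for macrophage genes, 62.7% for monocyte and neutrophil genes, 26.3% for erythroid genes, 31.1% for NK cell genes and 103% for T cell genes. It was 68.3% for the other plasmacytoid genes, 59.1% for the other type 1 genes and 76.8% for the other type 2 genes. The median of the 8 genes lay between those of the B cell and macrophage lists, with no test. With TRAIL, Zbtb46 (49.3%) was within the range of B cell genes (35.5 to 52.8%) and Bst2 (94.5%) within that of macrophage genes (85.4 to 116%). After stimulation alone both were far from these lists. Zbtb46 was at 240% and Bst2 at 263% of medium, B cell genes at 0.955 to 18.6% and macrophage genes at 0.958 to 17.6%. The 11 MHC class II genes, which dendritic cells share with B cells and macrophages, kept a median of 53.9% with TRAIL. After stimulation 10 of these 11 were called lower (median log2 difference -3.29), beside 19.5% of all tested genes. With TRAIL added 10 were called higher (median 2.41), beside 16.6%. Against medium, where 2.13% of all tested genes were called lower, 2 of the 11 were lower with TRAIL. They were Ciita, the master regulator of this gene class, and H2-Eb2, both picked after the values were seen.

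The most abundant MHC class II gene was Cd74, the invariant chain, at 3118 TPM in medium, 546 after stimulation and 1668 with TRAIL. H2-Ab1 and H2-Aa, the chains of the I-A molecule, were at 1155 and 1140.5 TPM in medium, 155 and 95.2 after stimulation, and 743 and 615 with TRAIL. All of them stood between the other groups with TRAIL, as Siglech, Itgax, Clec9a and Cd209a did.

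Genes of dendritic cell maturation were given by a list of 11, of which 9 passed the filter. After stimulation 5 were called higher (Socs2, Relb, Cd80, Fscn1 and Ccl22) and none lower, beside 12.4% and 19.5% of all tested genes. The median log2 difference was 1.07, beside -0.15 over all genes. Activated T cells and B cells express several of the maturation genes as well. With TRAIL added 4 were lower (Fscn1, Cd40, Ccl22 and Socs2) and 1 higher than after stimulation alone, beside 14.3% and 16.6% of all tested genes. Against medium 1 was lower (Cd40) and 1 higher (Cd83), beside 2.13% and 2.49%. These names too were picked after the values were seen. The most abundant were Ccr7, the chemokine receptor that guides mature dendritic cells and naive T cells to lymph nodes (289, 537 and 564 TPM in the order medium, stimulated, TRAIL), Cd83 (69.9, 84.3 and 185 TPM) and Relb, an NF-kB subunit (31.5, 69.5 and 35.8 TPM). Only Cd83 was called higher with TRAIL than after stimulation alone, by 1.12 on the log2 scale (limma, adjusted p = 4.2e-05).

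For each of the 8 genes, the 3 genes most like it over the 9 libraries were found from the root mean square difference of centred log2(TPM + 1), among 12150 genes with a group mean of at least 5 TPM. Siglech was nearest to Lpcat2 (0.084), Igkv1-135 (0.11) and Sirpb1a (0.12), and Clec9a to Cyp4f16 (0.065), Ctsh (0.12) and Cd300lb (0.12). Itgax was nearest to Bcl11a (0.084), Cnr2 (0.087) and Myo1f (0.094). Cd209a was nearest to Aldh3b1 (0.12), Hacd4 (0.13) and Igkv12-98 (0.14), and reads of the immunoglobulin segments are uncertain because those genes resemble each other.

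The 2 genes with higher levels after stimulation had other neighbours. The genes near Bst2 included Rcl1 (0.071) and Ndufs5 (0.074), and Zbtb46 was nearest to Cnn3 (0.092), Ppat (0.11) and Slamf7 (0.12). Flt3 was nearest to Morc3 (0.073), Mettl27 (0.077) and Tcirg1 (0.079), and Clec10a to Ccdc17 (0.13), Ypel3 (0.13) and Mdp1 (0.14). These are likenesses of pattern over 3 groups of libraries only.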

How the data were processed

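RNA-seq libraries of splenic CD4+ T cells (3 groups of 3) were analysed from a table of TPM values deposited by the authors, which holds 55487 genes under Ensembl identifiers. The authors trimmed reads with Trimmomatic 0.36 and aligned them with HISAT2 2.1.0, and SAMtools 1.2, StringTie 2.1.2 and DESeq2 are named in the submitters' processing notes. The program that made the TPM values and the strand setting are not given in the sources used here. The notes name GRCh38, whereas the study's methods name GRCm38, and the loci of all 8 genes in the table equal those of GENCODE M21 on GRCm38. Each library sums to about 1000003 TPM, which keeps no depth, so no counting error could be given. That value of 0.0001 TPM also occurs in 1 or more libraries for 16 genes whose median is 10 TPM or more, so it can be a failed estimate.

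Groups and replicate numbers came from the sample labels. The 9 libraries were fitted together, on log2(TPM + 1), by limma 3.58.1 under R 4.3.3, with moderated variances that follow a mean trend and no replicate block. The fit took the 15536 genes that reached 1 TPM in 3 or more libraries, and Benjamini-Hochberg adjustment was over all of them. A call required both an adjusted p below 0.05 and a log2 difference of 1 or more in size. With 3 libraries against 3, a two-sided exact permutation test of 1 gene cannot give less than p = 0.1, so none was run. The fit was tested on simulated data. Identity between paralogs was computed with BLAST+ 2.17.0 on GENCODE M21 transcripts, motif matches and tables with Python 3.11.15 and pandas 2.3.3, and figures with matplotlib 3.10.9.

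The 8 genes, the other gene lists and the tests were chosen with earlier results of these data known. By the rule for named genes, all 8 were named, the other lists were given by their counts and medians with the 3 genes of highest mean TPM, and 3 similar profiles were named for each of the 8. Most names outside the rule are said to be so (Cd4 and Cd3e, named for the identity of the cells, are others), and some genes that the rule or a count would name are not reported here. Gene lists comprised the 8 genes, other plasmacytoid, type 1 and type 2 dendritic cell genes, maturation genes, ligands acting on dendritic cells, MHC class II genes, interferon-stimulated genes, type I interferons, and markers of B cells, macrophages, monocytes and neutrophils, erythroid cells, NK cells, CD8 T cells and T cells. Alternatives varied the pseudocount, filter, scaling, variance trend, replicate block, thresholds and libraries.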

Additional observations from a re-analysis of the deposited data

How the results depend on the processing

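Across 408 combinations of gene, comparison and alternative, 391 kept the direction and the side of the threshold, 6 lost the call, 9 gained one and 2 changed sign. The sign changes were those of Bst2 for TRAIL against medium, 0.087 with median-of-ratios scaling and 0.065 with quantile scaling, where no call was made, and the cause was not tested. These scalings moved the median of all genes by 0.17 and 0.19 for stimulated against medium and by 0.15 and 0.14 for TRAIL against medium. The share of called genes that were higher went from 38.8% to 48.9% and 52.1% in the first comparison and from 53.9% to 73.0% and 70.6% in the latter. With a pseudocount of 5, 3 dendritic cell genes were called for TRAIL against stimulated, and all genes called numbered 2946 for stimulated against medium, 2883 for TRAIL against stimulated and 332 for TRAIL against medium. A pseudocount of 0.1 gave 1167 in the last comparison. By adjusted p alone the counts were 10678, 10420 and 5063, and 6 dendritic cell genes differed between TRAIL and medium. For stimulated against medium, 4 dendritic cell genes were called with a pseudocount of 5, and 8 with a pseudocount of 0.1 or without medium replicate 1.

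Same-numbered libraries of different groups did not deviate together (3 of 9 pairs had a correlation over 0.1, from -0.31 to 0.29), so the numbers were not taken to pair samples. With the replicate block, 6, 6 and 0 dendritic cell genes were called in the 3 comparisons, among 4960, 4802 and 714 of all genes, and 4 of the 8 genes had an adjusted p under 0.05 for TRAIL against medium. That number was 3 to 6 when single libraries were left out, and 3 with a pseudocount of 0.1, without the filter or with either scaling. The unknown depth limits what can be said of genes under 1 TPM.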

Other observations

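Of 6 ligands through which T cells and other lymphocytes act on dendritic cells, 2 were higher (Cd40lg and Tnfsf11), 1 was lower (Csf2) and 3 were not called with TRAIL added against stimulation alone, beside 16.6% higher and 14.3% lower over all tested genes. Against medium 2 were higher (Tnfsf11 and Xcl1), beside 2.49% of all genes, and no test was made of the list. Cd40lg, the ligand of CD40 that licenses dendritic cells, averaged 104 ± 10.2 TPM in medium, 31.6 ± 2.25 after stimulation and 196 ± 11.8 with TRAIL (SD, n = 3). Tnfsf11, or RANKL, which prolongs the life of dendritic cells, averaged 8.27 ± 1.57, 4.28 ± 0.62 and 38.1 ± 2.73 TPM, and its TRAIL libraries were higher than medium by 2.09 on the log2 scale (limma, adjusted p = 8.0e-06). For both, every TRAIL library was above every library of the other groups. Csf2, or GM-CSF, a growth factor of dendritic cells, averaged 0.345 ± 0.17, 27.2 ± 3.56 and 0.473 ± 0.23 TPM. Xcl1, the chemokine for type 1 cells, averaged 7.98 ± 1.56, 22.7 ± 3.98 and 17.9 ± 3.38 TPM, and was called higher than medium with TRAIL too, by 1.07 (limma, adjusted p = 1.9e-03). Csf2 and Xcl1 were named after their values were seen.

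Of the 2 CD8 T cell genes, neither was called changed on stimulation. Both were lower with TRAIL than in medium (median log2 difference -1.26), beside 2.13% of all tested genes. Cd8a, which type 1 dendritic cells of the spleen also express in the mouse, averaged 39.0 ± 1.42 TPM in medium, 45.0 ± 3.11 after stimulation and 14.1 ± 2.18 with TRAIL. Among the maturation genes, the chemokine Ccl22 averaged 1.19 ± 0.14, 106 ± 0.35 and 0.525 ± 0.10 TPM, and the actin-bundling protein gene Fscn1 averaged 5.70 ± 1.03, 58.7 ± 3.19 and 3.13 ± 0.55 TPM, both named after their values were seen.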
